A study of Mus musculus with 4 samples.

Results

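The genes described here encode lysosomal hydrolases, their soluble cofactors, lysosomal membrane proteins and the lysosomal regulator Tfeb, in mouse liver. They are 39 genes listed by symbol, out of 50584 gene symbols counted. Each of the 39 symbols was found in the count data, and all 39 passed the filter on low counts. The study compared liver mRNA of DBA/2J and C57BL/6J mice, a pair of inbred strains, with 2 libraries of poly(A) RNA per strain, each from a different mouse. All animals were wild-type males aged 14 weeks on a chow diet, so strain was the only labelled difference. The series was set up around reduced expression of the malonyl-CoA decarboxylase gene in DBA/2J, and here the same libraries are read for lysosomal genes.

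Lysosomes are acidic organelles that break down proteins, glycans and lipids delivered by endocytosis and autophagy. Their soluble hydrolases are made in the endoplasmic reticulum, tagged with mannose 6-phosphate in the Golgi and carried to the lysosome by receptors, while heavily glycosylated membrane proteins line the organelle. Many of these genes carry short E-box sequences in their promoters that the transcription factor TFEB and its relatives bind. In liver, hepatocytes and the resident macrophages (Kupffer cells) are both rich in lysosomes, and inherited loss of single hydrolases causes lysosomal storage diseases.

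The E-box letters CACGTG were searched on both strands in RefSeq promoters (GRCm38.p6, 250 bases before to 50 after each start site), since they are shared sequence that the choice of genes did not use. Promoters were found for 36 of the 39 genes. CACGTG stood in a promoter of 14 of these 36 genes (38.9%). Over all 27025 genes with a promoter entry, expressed in liver or not, the share was 8.09%. The longer TCACGTGA, which contains CACGTG, stood in 5 of 36 genes (13.9% against 1.12% of all genes). The full palindrome of the CLEAR element, which contains both, stood in Cln3 alone (2.78% against 0.370%). The copy nearest upstream of the start site is shown for each of the 14 genes, with 10 bases on either side and CACGTG in capitals, from the gene with the highest DBA/2J over C57BL/6J difference to the lowest.
Sgsh, chr11:119355524-119355549, minus strand: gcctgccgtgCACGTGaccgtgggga
Arsa, chr15:89477425-89477450, minus strand: aactcagtgtCACGTGttgtctgctc
Naglu, chr11:101070011-101070036, plus strand: accttcaggtCACGTGgcccgaggtc
Lamp1, chr8:13159136-13159161, plus strand: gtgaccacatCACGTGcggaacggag
Ctsf, chr19:4855076-4855101, plus strand: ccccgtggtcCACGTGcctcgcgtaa
Ctsa, chr2:164833751-164833776, plus strand: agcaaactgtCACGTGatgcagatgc
Lgmn, chr12:102439126-102439151, minus strand: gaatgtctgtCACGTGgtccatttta
Cln3, chr7:126583342-126583367, minus strand: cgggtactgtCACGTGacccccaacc
Gaa, chr11:119267813-119267838, plus strand: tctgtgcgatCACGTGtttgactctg
Mcoln1, chr8:3500464-3500489, plus strand: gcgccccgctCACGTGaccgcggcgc
Gla, chrX:134601184-134601209, minus strand: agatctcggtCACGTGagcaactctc
Ctsl, chr13:64370741-64370766, minus strand: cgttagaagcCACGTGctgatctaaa
Ctsd, chr7:142387910-142387935, minus strand: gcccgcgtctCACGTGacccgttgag
Glb1, chr9:114401020-114401045, plus strand: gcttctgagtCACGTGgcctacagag
In 10 of the 14 genes the motif shown began within 100 bases of the start site. Lamp1 held 4 copies, and Cln3, Ctsa, Ctsd, Gla and Mcoln1 held 2 each. The 3 genes with CACGTG that differed between the strains (Arsa, Naglu and Glb1, described later) are shown with the whole 250 bases before their start site, again with the motif in capitals.
Arsa, chr15:89477425-89477674, minus strand: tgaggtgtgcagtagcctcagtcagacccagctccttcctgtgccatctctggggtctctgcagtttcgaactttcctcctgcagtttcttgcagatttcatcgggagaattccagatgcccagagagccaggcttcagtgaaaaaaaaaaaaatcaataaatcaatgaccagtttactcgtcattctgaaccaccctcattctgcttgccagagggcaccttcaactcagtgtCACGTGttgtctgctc
Glb1, chr9:114400828-114401077, plus strand: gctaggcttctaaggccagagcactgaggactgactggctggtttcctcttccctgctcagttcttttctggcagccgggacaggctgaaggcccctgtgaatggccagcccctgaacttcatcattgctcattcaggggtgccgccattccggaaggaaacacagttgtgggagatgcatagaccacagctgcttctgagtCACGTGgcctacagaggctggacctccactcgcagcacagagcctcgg
Naglu, chr11:101069844-101070093, plus strand: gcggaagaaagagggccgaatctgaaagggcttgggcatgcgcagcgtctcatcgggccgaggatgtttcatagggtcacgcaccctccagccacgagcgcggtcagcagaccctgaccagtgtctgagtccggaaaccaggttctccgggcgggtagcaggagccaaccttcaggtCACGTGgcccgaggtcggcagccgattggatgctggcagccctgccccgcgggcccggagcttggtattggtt
These letters are the C57BL/6J reference, and the DBA/2J alleles were not examined. Of the 14 genes with CACGTG, 3 differed between the strains, 2 higher and 1 lower in DBA/2J. Of the 22 without it in these windows, 4 did, 3 higher and 1 lower. The median log2 difference was 0.06 in the first set and 0.16 in the second, and the median level was 16 and 18.3 CPM per kilobase. A match describes the letters in the window and is not evidence of binding.

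Total counts ranged from 48096706 to 52520737 per library, of which albumin took 5.91% to 6.82%. The 39 genes each held from 217 to 39495 counts per library. Levels here are CPM, the usual depth-scaled counts, at library sizes corrected by the TMM method, and levels of different genes are set side by side only as CPM per kilobase of exon.

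Per kilobase, the levels spanned 177-fold. The lysosomal membrane glycoprotein gene Lamp1 stood at 273 ± 21.9 CPM per kilobase in DBA/2J and 225 ± 6.02 in C57BL/6J (SD, n = 2). The cysteine protease gene Ctsl stood at 223 ± 5.39 and 268 ± 7.60. Next came Psap, the precursor of the saposins that help sphingolipid hydrolases, with a mean of 159 over all 4 libraries, followed by the cathepsin genes Ctsz (151), Ctsb (136) and Ctsd (73.2), and by Lamp2 (71.5). At the low end were Tfeb (2.35), the alpha-galactosidase gene Gla (1.97), the galactosylceramidase gene Galc (1.86), the sulfamidase gene Sgsh (1.68) and the alpha-L-iduronidase gene Idua (1.41). Of 38 neighbouring pairs in this order, 30 had overlapping library values. The 8 pairs whose values were apart in all libraries were Ctsl over Psap, Ctsb over Ctsd, Lamp2 over Lipa, Ctsh over Gm2a, Hexa over Gaa, Gusb over Mcoln1, Mcoln1 over Arsb, and Tfeb over Gla.

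**Figure D1:**
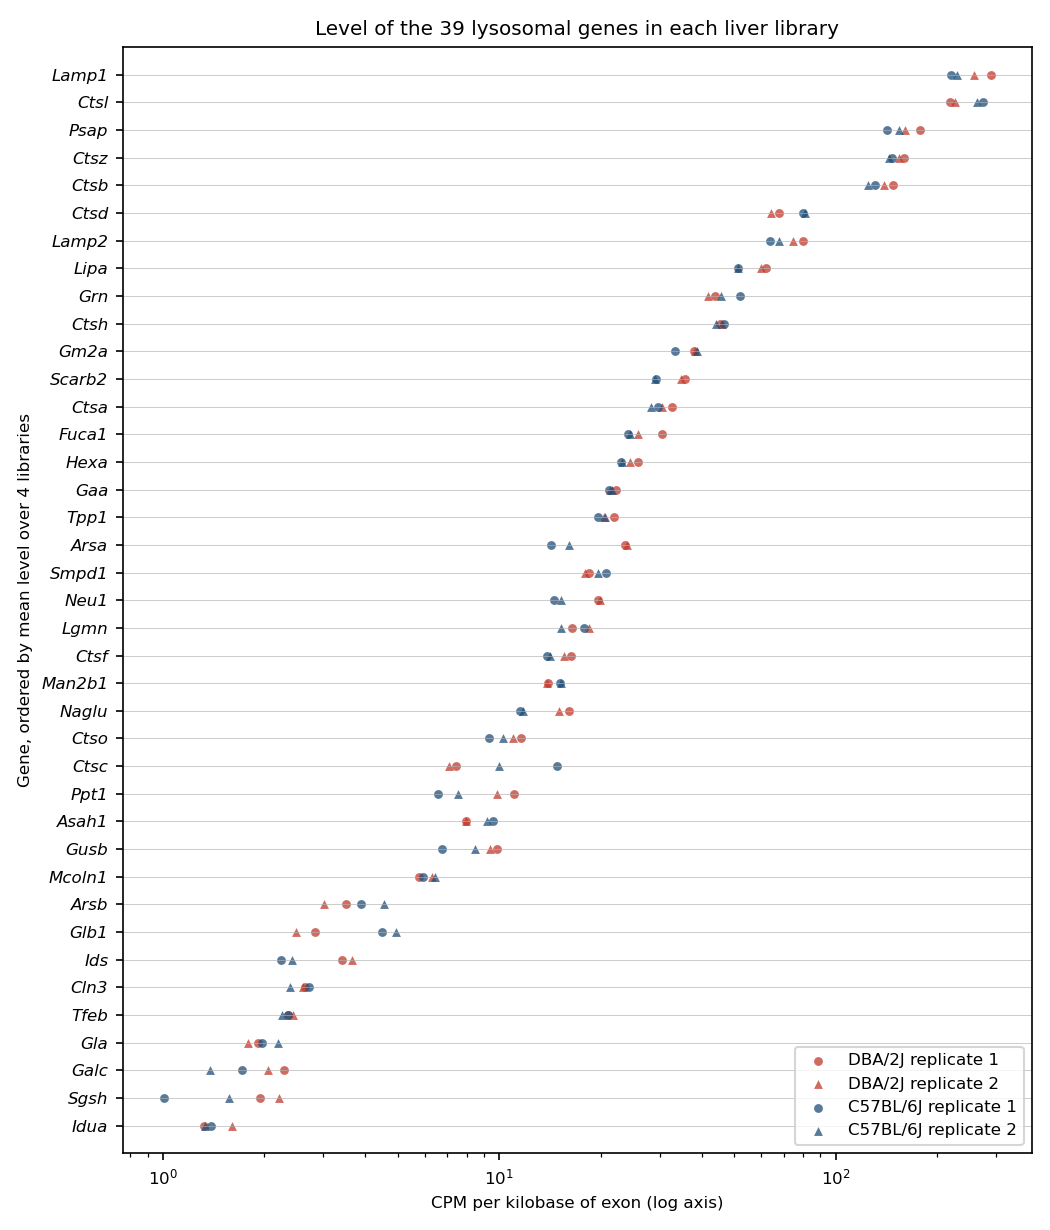
Level of each of the 39 genes in each library, in CPM per kilobase of exon on a log axis, ordered by the mean over 4 libraries. Red marks are DBA/2J and blue marks C57BL/6J, with circles for replicate 1 and triangles for replicate 2. Marks run from 1.01 for Sgsh in C57BL/6J replicate 1 to 289 for Lamp1 in DBA/2J replicate 1, and for most genes the spread among libraries is small beside that range.

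The libraries of a strain lay close together for these genes. The median absolute log2 difference between replicates was 0.08 in DBA/2J and 0.07 in C57BL/6J, against 0.14 and 0.21 over all tested genes. The 39 genes are mostly of high level, with a median CPM percentile of 84.9 among tested genes. The part of level in this closeness was not tested. Among the 39 genes the widest replicate differences were in C57BL/6J, 0.64 for Sgsh and 0.57 for the dipeptidyl peptidase gene Ctsc. In DBA/2J the widest was 0.28, for Idua.

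Between the strains, 7 of the 39 genes were called different at an adjusted p below 0.05 in edgeR's quasi-likelihood test (17.9%), where 18.2% of all 15647 tested genes were called. The share called was thus that of liver genes in general. The called genes were higher in DBA/2J in 5 cases (Arsa, Ids, Ppt1, Naglu and Neu1) and lower in 2 (Glb1 and Ctsc), against 9.29% of all tested genes higher and 8.87% lower. All 7 estimated differences were under 2-fold. The 95% intervals of Glb1 (log2 -1.16 to -0.50) and Ctsc (log2 -1.24 to -0.31) reached beyond 2-fold. The median log2 difference, DBA/2J over C57BL/6J, was 0.11 over the 39 genes and 0.01 over all tested genes. Library values were fully separated by strain in 31 of the 39 genes (79.5%, against 63.8% of all tested genes), 21 of them higher in DBA/2J and 10 lower. Of all tested genes, 32.5% were separated with DBA/2J higher and 31.2% with DBA/2J lower. The median SE of the log2 difference was 0.095 over the 39 genes and 0.167 over all tested genes. The part of this smaller error in the separation was not tested. As a percent of all counts, the 39 genes together took 0.582% and 0.581% in DBA/2J and 0.507% and 0.514% in C57BL/6J, and 2 libraries against 2 allow no two-sided exact permutation p under 0.333 for that share. In whole liver, fewer cells of a type and less RNA per cell cannot be told apart.

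**Figure D2:**
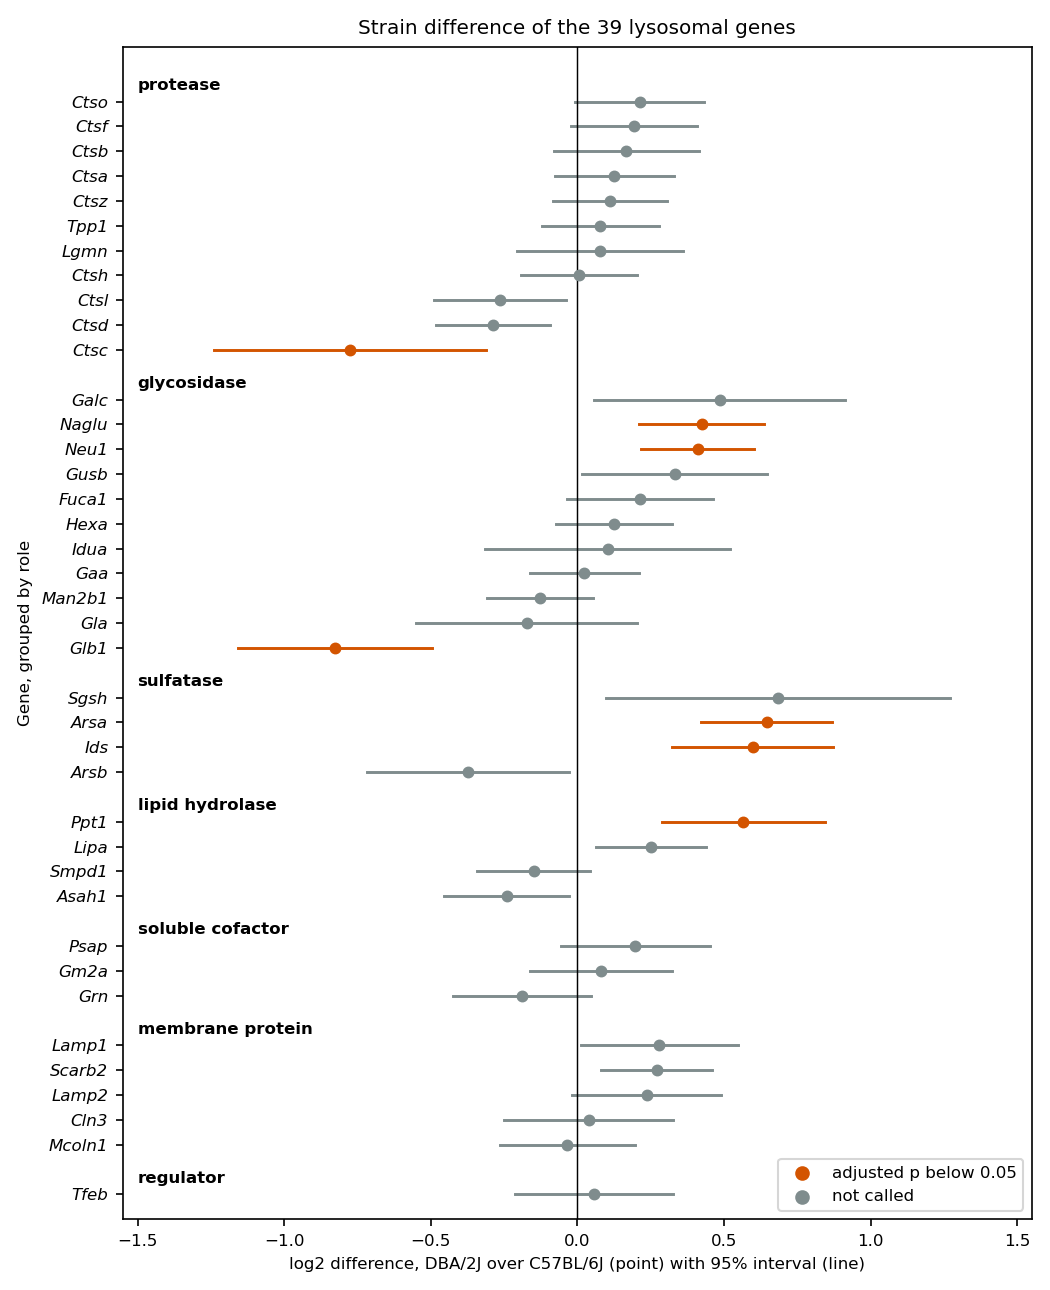
log2 difference of each gene, DBA/2J over C57BL/6J, with its 95% interval from the edgeR fit, grouped by role. Orange marks the 7 genes at an adjusted p below 0.05, of which 5 lie above 0 and 2 below, and grey the other 32.

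None of the 7 calls held without a DBA/2J library. With DBA/2J replicate 1 left out their edgeR adjusted p ran from 0.125 to 0.27, and with DBA/2J replicate 2 left out from 0.121 to 0.249, while all 7 kept an unadjusted p under 0.05 in both fits. In those fits the DBA/2J strain rests on a single library, which is assumed to vary like C57BL/6J, and 1.79% and 1.92% of all tested genes were called. All 7 calls held with either C57BL/6J library left out, where 24.2% (without replicate 1) and 29.9% (without replicate 2) of all tested genes were called. They also held in DESeq2 (18.8% of all genes), with RLE scaling (17.9%), with library totals alone (18.9%), in the older edgeR form (17.9%) and with a replicate term (15.3%). With no filter on low counts, where 5.87% of genes were called, Arsa, Ids and Glb1 alone kept their calls.

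The sulfatases remove sulfate groups from glycolipids and glycosaminoglycans. Of 4 genes, 2 were called, both higher, and all 4 had an unadjusted p under 0.05 in edgeR. Over the 39 genes 17 did, and 35.4% of all tested genes. Arsa, which encodes arylsulfatase A, the enzyme that acts on sulfatide, had 86.7 and 88 CPM in DBA/2J and 52.5 and 59.2 CPM in C57BL/6J. Both DBA/2J libraries were well above both C57BL/6J libraries. The difference was 1.56-fold, or 0.65 ± 0.09 (SE) on the log2 scale, with an edgeR adjusted p of 0.00979, the lowest among the 39 genes. Arsa shares 18.8% of its exon bases with the symbol C230037L18Rik, which had 22 to 38 counts per library.

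Ids, on the X chromosome, encodes iduronate-2-sulfatase, which acts on heparan and dermatan sulfate. It had 17.4 and 18.6 CPM in DBA/2J and 11.4 and 12.3 CPM in C57BL/6J, again without overlap. It was 1.51-fold higher in DBA/2J (log2 0.60 ± 0.11, edgeR adjusted p = 0.0204). Sgsh, which encodes the sulfamidase of heparan sulfate, had the highest log2 value of the 39 genes, 0.68 ± 0.24, and was not called (edgeR adjusted p = 0.102). Its levels were 8.56 and 9.76 CPM in DBA/2J and 4.45 and 6.95 CPM in C57BL/6J, so that the C57BL/6J libraries differed widely from each other. Without C57BL/6J replicate 2 Sgsh was called at an edgeR adjusted p of 0.00315, and over all alternatives its adjusted p ran up to 0.408. Arsb, which encodes arylsulfatase B of dermatan sulfate breakdown, leaned the other way at -0.37 ± 0.14 (edgeR adjusted p = 0.12) and was called without C57BL/6J replicate 1 (0.0303, range over alternatives to 0.485).

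The glycosidases cut sugars from glycoproteins, glycolipids and glycosaminoglycans. Of 11 genes, 2 were called higher and 1 lower. Naglu, which encodes alpha-N-acetylglucosaminidase of heparan sulfate breakdown, had 42.95 and 39.97 CPM in DBA/2J and 30.6 and 31.2 CPM in C57BL/6J. The C57BL/6J libraries nearly coincided and both DBA/2J libraries lay above them. The difference was 1.34-fold (log2 0.42 ± 0.09, edgeR adjusted p = 0.0262). Neu1, which encodes the lysosomal sialidase, had 73.6 and 74.2 CPM in DBA/2J and 54.2 and 56.96 CPM in C57BL/6J, with replicates close in both strains. It was 1.33-fold higher in DBA/2J (log2 0.41 ± 0.08, edgeR adjusted p = 0.0212). Ctsa, the protease that binds and stabilises this sialidase, stood at 0.13 ± 0.08 (edgeR adjusted p = 0.329).

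Glb1 encodes the acid beta-galactosidase, a further partner in that complex, and it moved in the opposite direction. It had 8.50 and 7.50 CPM in DBA/2J and 13.5 and 14.8 CPM in C57BL/6J, without overlap. It was 1.77-fold lower in DBA/2J, the lowest value of the 39 genes (log2 -0.83 ± 0.13, edgeR adjusted p = 0.014). Glb1 shares 5.49% of its exon bases with Tmppe, a symbol with 81 to 244 counts per library, whose log2 value was 0.84 (edgeR adjusted p = 0.107), and reads in shared bases may go uncounted for both.

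Of the remaining 8 glycosidase genes, 6 had values above 0 and 2 below, and none was called. Galc, which encodes the enzyme that cuts galactosylceramide, had the highest, 0.49 ± 0.17, and was called without C57BL/6J replicate 1 (edgeR adjusted p = 0.0254, range over alternatives to 0.487). The beta-glucuronidase gene Gusb had 44.7 and 42.6 CPM in DBA/2J and 30.7 and 38.6 CPM in C57BL/6J (log2 0.33 ± 0.13). Gusb was called without C57BL/6J replicate 2 (edgeR adjusted p = 0.00583, range over alternatives to 0.473). The fucosidase gene Fuca1 stood at 0.21, the hexosaminidase alpha subunit gene Hexa at 0.13, Idua at 0.10, the acid alpha-glucosidase gene Gaa at 0.02, the alpha-mannosidase gene Man2b1 at -0.13 and Gla at -0.17.

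The proteases, mainly cathepsins, degrade proteins in the lysosome. Of 11 genes, Ctsc alone was called, and 8 had values above 0. Ctsc encodes the dipeptidyl peptidase that activates granule serine proteases of neutrophils and other immune cells. It had 43.3 and 41.1 CPM in DBA/2J and 86.3 and 58.1 CPM in C57BL/6J, so that C57BL/6J replicate 1 stood above all other libraries. The difference was 1.71-fold lower in DBA/2J (log2 -0.78 ± 0.19, edgeR adjusted p = 0.0415). It was -0.47 without C57BL/6J replicate 1 (edgeR adjusted p = 0.00792) and -1.03 without C57BL/6J replicate 2 (1.19e-04), so the size of the difference moved with the C57BL/6J library while the direction held.

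C57BL/6J replicate 1 also stood apart in 9 monocyte and neutrophil marker genes. Their summed level was 15.0 CPM in it, against 2.92 CPM in C57BL/6J replicate 2 and 3.40 and 3.60 CPM in DBA/2J. The granulocyte protein gene S100a9 had 133 counts in it and 7 to 10 elsewhere, and Ly6g, Retnlg and Mpo were at 0 in some libraries. The Ctsc difference without that library is the -0.47 given above, and the part of these cells in the rest of it was not tested.

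**Figure D3:**
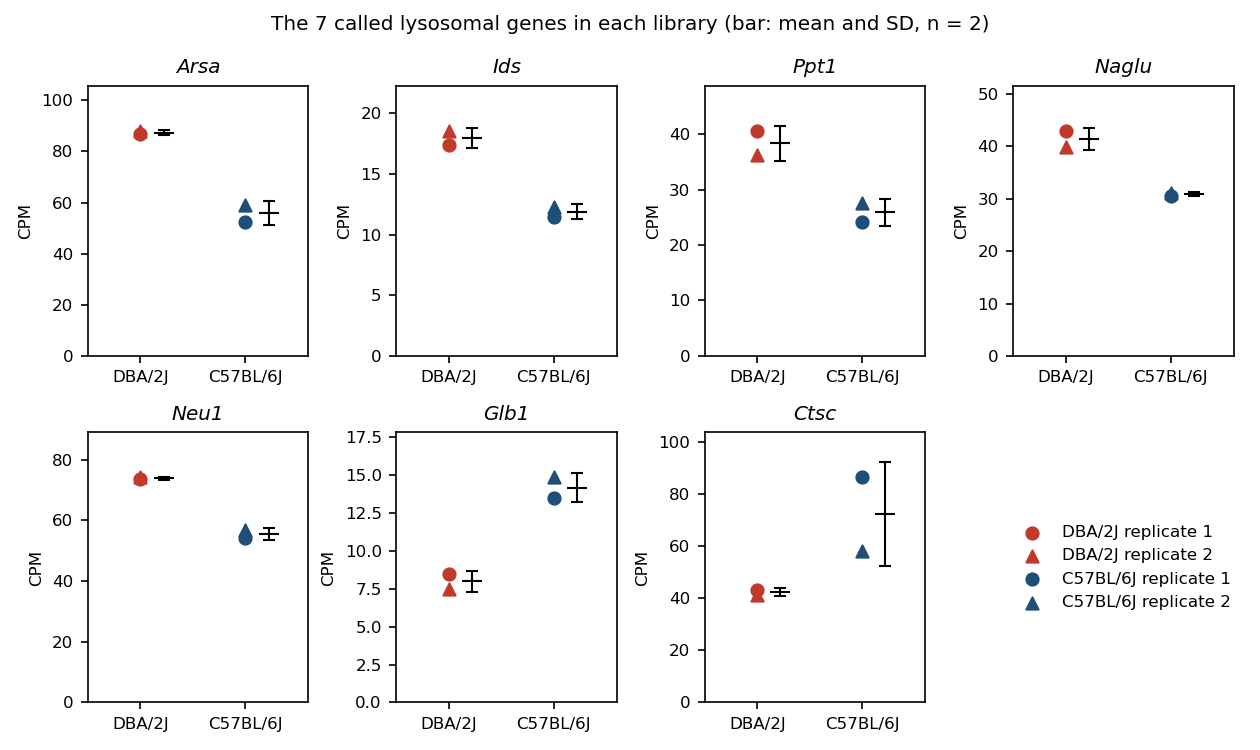
CPM of the 7 called genes in each library, with the mean and SD of each strain (n = 2) as a black bar beside the points. Every panel starts at 0. The strains' libraries do not overlap in any panel, and C57BL/6J replicate 1 is far above replicate 2 for Ctsc only, at 86.3 against 58.1 CPM.

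Ctsd and Ctsl, which encode the main aspartic and a major cysteine protease of lysosomes, were both below 0 without being called. Ctsd had 159 and 150 CPM in DBA/2J and 187 and 191 CPM in C57BL/6J, without overlap (log2 -0.29 ± 0.08, edgeR adjusted p = 0.0583). It passed the threshold without C57BL/6J replicate 1 (0.0443) and reached 0.34 over the alternatives. Ctsl had 432 and 448 CPM in DBA/2J and 539 and 518 CPM in C57BL/6J (log2 -0.26 ± 0.09, edgeR adjusted p = 0.0994). Ctsd shares 34.4% of its exon bases with a symbol that had 0 counts in every library. The other 8 protease genes lay between 0.01 for Ctsh and 0.21 for Ctso. Ctsb, which encodes an abundant cysteine protease, had 703 and 658 CPM in DBA/2J and 620 and 593 CPM in C57BL/6J. Its log2 difference was 0.17 with a 95% interval from -0.08 to 0.41. Ctsb shares 16.2% of its exon bases with Fdft1, which had 5735 to 6637 counts per library.

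Of 4 lipid hydrolase genes, Ppt1 was called. It encodes palmitoyl-protein thioesterase 1, which removes fatty acids from proteins and is lost in an infantile form of neuronal ceroid lipofuscinosis. It had 40.6 and 36.2 CPM in DBA/2J and 24.2 and 27.7 CPM in C57BL/6J, without overlap. It was 1.48-fold higher in DBA/2J (log2 0.57 ± 0.11, edgeR adjusted p = 0.0243). Lipa, which encodes the acid lipase that splits cholesteryl esters and triglycerides taken up with lipoproteins, had 184 and 178 CPM in DBA/2J and 152 CPM in both C57BL/6J libraries. Its log2 value of 0.25 ± 0.08 did not pass the threshold (edgeR adjusted p = 0.0726) but did with scaling by library totals alone (0.0342, range over alternatives to 0.413). The acid sphingomyelinase gene Smpd1 stood at -0.15 and the acid ceramidase gene Asah1 at -0.24, neither called.

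Among soluble cofactors, edgeR called none of 3 genes, DESeq2 called 0, and 0 had an unadjusted p under 0.05. Psap stood at 0.20, Gm2a, which encodes the activator protein that presents a ganglioside to hexosaminidase, at 0.08, and the progranulin gene Grn at -0.19. Grn alone passed the threshold without C57BL/6J replicate 2 (edgeR adjusted p = 0.0496, range over alternatives to 0.588).

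Lysosomal membrane proteins had 0 calls among 5 genes in edgeR and 0 in DESeq2, with 2 at an unadjusted edgeR p under 0.05. Lamp1 had 773 and 690 CPM in DBA/2J and 591 and 614 CPM in C57BL/6J, and Lamp2, on the X chromosome, had 763 and 714 CPM against 608 and 646 CPM. Both genes, which encode the most abundant glycoproteins of the lysosomal membrane, were higher in every DBA/2J library than in any C57BL/6J library. Their log2 values were 0.28 ± 0.11 and 0.24 ± 0.10 (edgeR adjusted p = 0.127 and 0.166). Scarb2, which encodes the receptor that carries beta-glucocerebrosidase to lysosomes, stood at 0.27 ± 0.08 (edgeR adjusted p = 0.063). With scaling by library totals alone Lamp1 and Scarb2 passed the threshold (edgeR adjusted p = 0.049 and 0.0298, ranges over alternatives to 0.564 and 0.382). Cln3, the gene of a lysosomal membrane protein mutated in juvenile Batten disease, stood at 0.04, and the calcium channel gene Mcoln1 at -0.03. The sign for Cln3 and Mcoln1, and for Ctsh, Lgmn, Gaa, Idua and Gm2a, differed in at least 1 alternative.

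Tfeb, which encodes the transcription factor that drives many of these genes, had 13.4 and 13.8 CPM in DBA/2J and 13.4 and 12.8 CPM in C57BL/6J. Its log2 difference was 0.06 with a 95% interval from -0.21 to 0.32 (edgeR adjusted p = 0.757). For 31 of the 32 genes that were not called, the 95% interval lay within a 2-fold difference in either direction, the exception being Sgsh.

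**Figure D4:**
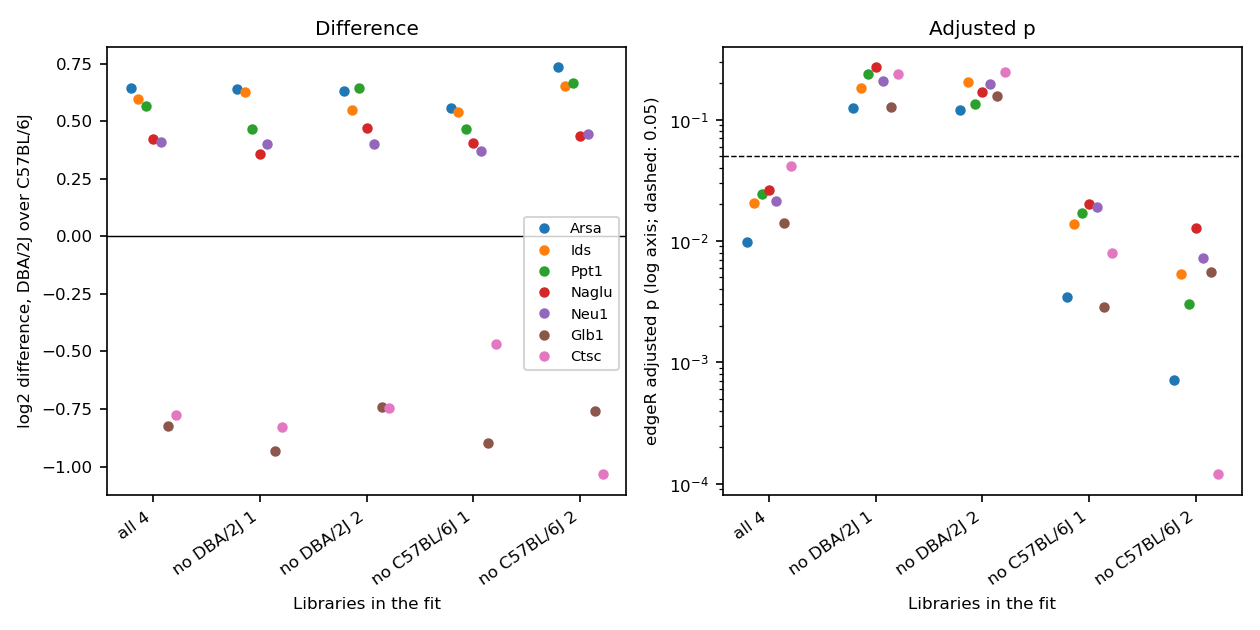
log2 difference (left) and edgeR adjusted p on a log axis (right) of the 7 called genes with all 4 libraries and with each library left out. The differences keep their sign in every fit, and the adjusted p lies above the dashed threshold of 0.05 for all 7 genes whenever a DBA/2J library is left out, from 0.121 to 0.27.

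Other genes of the lysosomal system were read from 6 lists, beside the same background of 18.2% called. Of 29 other hydrolases and cofactors, 6 were higher and 2 lower in DBA/2J, with a median log2 of 0.08. Among the higher, the endosomal aspartic protease gene Ctse stood at 6.60, the putative phospholipase gene Plbd1 at 0.85 and Galns, which encodes the sulfatase lacking in Morquio syndrome, at 1.10. Galns had 20.8 and 22.4 CPM in DBA/2J and 10.6 and 9.59 CPM in C57BL/6J (edgeR adjusted p = 0.0039). Rnaset2b was lower at -2.60. Rnaset2a was higher at 0.93, and since Rnaset2a and Rnaset2b are near-identical copies that can share reads, both values are uncertain. Without a DBA/2J library Galns, Plbd1 and Rnaset2b were not called (highest edgeR adjusted p 0.0844, 0.0739 and 0.0932), and Ctse was (highest 0.00939).

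Of 26 other membrane proteins and transporters, 25 were tested and 2 were called, both higher. These were Pqlc2, which encodes the exporter of cationic amino acids (1.16, 42.8 and 44.9 CPM against 18.9 and 20.3 CPM), and the proton-coupled amino acid transporter gene Slc36a1 (1.12, 113 and 105 CPM against 40.3 and 59.6 CPM). The edgeR adjusted p was 0.00174 for Pqlc2, which held with any library left out (up to 0.0489), and 0.0152 for Slc36a1, which did not (up to 0.148). The untested gene was Gpnmb, with 2 to 5 counts per library. The macrophage-rich gene Cd68 stood at -0.07 and the cholesterol exporter gene Npc1 at 0.36, neither called.

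The vacuolar ATPase is the proton pump that acidifies lysosomes. Of 18 subunit genes, 5 were lower and 2 higher, with a median log2 of -0.17. Atp6v0c, the gene of the proteolipid ring, had 7.67 and 8.76 CPM in DBA/2J and 21.3 and 24.6 CPM in C57BL/6J (log2 -1.48 ± 0.13, edgeR adjusted p = 0.00258). Atp6v0e stood at -0.49 and Atp6v1h at -0.42. Atp6v0e2, an alternative form of a small membrane subunit, had 13.4 and 8.69 CPM in DBA/2J and 0.39 and 0.761 CPM in C57BL/6J, a log2 value of 4.25 (edgeR adjusted p = 0.00243), and Tcirg1 stood at 0.32. Without DBA/2J replicate 1 no subunit gene was called lower and 1 higher, and without DBA/2J replicate 2 there was 1 in each direction, Atp6v0e2 among them in both fits (edgeR adjusted p up to 0.0393).

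Of 23 genes that sort lysosomal enzymes, 3 were called, all higher: the sorting receptor genes Sorl1 (2.37) and Sort1 (0.49) and the mannose 6-phosphate receptor gene Igf2r (0.51). Sorl1 had 9.22 and 9.63 CPM in DBA/2J and 2.13 and 1.52 CPM in C57BL/6J. The smaller mannose 6-phosphate receptor gene M6pr stood at -0.18 and was not called. With either DBA/2J library left out all 3 calls were lost, the highest edgeR adjusted p being 0.0564 for Sorl1, 0.18 for Sort1 and 0.253 for Igf2r.

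Of 28 autophagy genes, Gabarap, which encodes an autophagosome-bound ubiquitin-like protein, was lower (-0.57 ± 0.08, edgeR adjusted p = 0.01, up to 0.133 without a DBA/2J library), and no other was called. Of 25 genes of mTORC1 and of TFEB relatives, 24 were tested, with 4 higher and 5 lower. The lower genes were 4 of the Ragulator complex that anchors mTORC1 to lysosomes, Lamtor3 (-0.54), Lamtor4 (-0.42), Lamtor2 (-0.37) and Lamtor5 (-0.44), and the TFEB relative Tfe3 (-0.46). Lamtor2, Lamtor4 and Lamtor5 have exon lengths of 884 to 1302 bases, and among all 2221 tested genes of up to 1500 bases 14.1% were called lower, against 4.19% of those above 6000. The share called higher was 10.4% up to 1500 bases, 6.82% from there to 3000, 7.73% from there to 6000 and 13.4% above 6000. The part of exon length in calls of either direction was not tested. The higher genes were Tsc1 (0.54), Mtor (0.46), Ppargc1a (0.91) and Fnip2 (0.61). None of these 9 was called without either DBA/2J library (highest edgeR adjusted p 0.272, for Lamtor5).

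**Figure D5:**
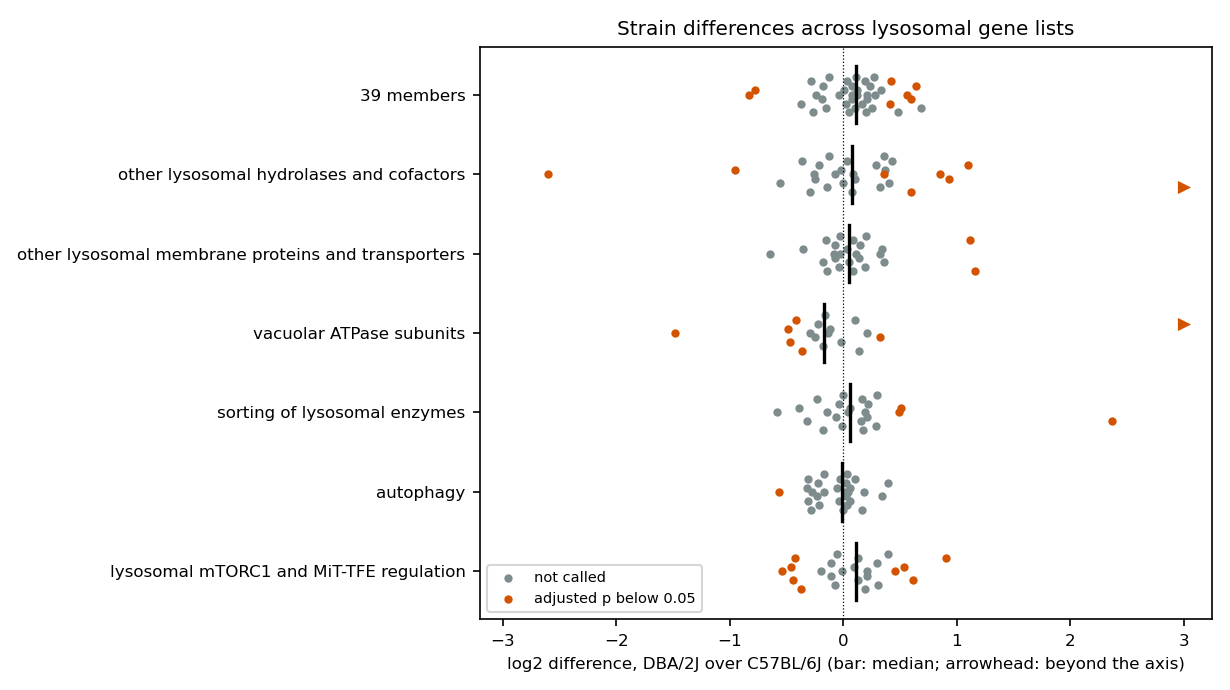
log2 differences, DBA/2J over C57BL/6J, of the 39 genes and of the tested genes of 6 further lysosomal lists. Each point is a gene, offset vertically only to be seen, orange where the adjusted p is below 0.05, and the black bar is the list's median, from -0.17 for vacuolar ATPase subunits to 0.11 for the 39 genes and for the mTORC1 list. Arrowheads mark Ctse and Atp6v0e2, which lie beyond the axis.

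Markers of cells that could carry lysosomal mRNA gave the following values. The 12 Kupffer cell markers summed to 243 and 245 CPM in DBA/2J and 285 and 210 CPM in C57BL/6J, overlapping between the strains, and the scavenger receptor gene Marco was the only one called (-2.97, edgeR adjusted p = 0.0238, up to 0.199 without a DBA/2J library). The 8 sinusoidal endothelial markers summed to 190 and 236 CPM against 208 and 168 CPM, with Stab2 called higher and Lyve1 lower. The 8 stellate cell markers summed to 251 and 309 CPM against 207 and 145 CPM, with Reln called higher. The 6 bile duct markers summed to 24.1 and 24.7 CPM against 76.8 and 49.9 CPM, with Spp1 called lower. The 7 lymphocyte markers stayed at or under 3.01 CPM in sum. The 8 hepatocyte markers found summed to 90976 to 105256 CPM, with Asgr1 alone called, lower. Without a DBA/2J library these 5 marker calls were lost too, the highest edgeR adjusted p being 0.284 for Stab2, 0.193 for Lyve1, 0.0731 for Reln, 0.0848 for Spp1 and 0.283 for Asgr1. With a replicate term Stab2 and Asgr1 were not called either (edgeR adjusted p = 0.0542 and 0.0608), nor was Asgr1 with library totals alone (0.0564). With no filter on low counts Marco, Stab2 and Asgr1 were not called (edgeR adjusted p = 0.0676, 0.0967 and 0.058). The part of these cells in the differences of the lysosomal genes was not tested.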

How the data were processed

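Poly(A) RNA from liver was sequenced as 100-base single-end reads in 4 libraries, 2 per strain, per the labels' protocols. The deposited values are raw counts per gene symbol, made with featureCounts 2.0.1 on Ensembl 88 exons (GRCm38), per the file headers; alignment with STAR 2.4.0g1 and a different featureCounts version, 1.5.2, are listed in the submitters' processing notes. The headers also name the paired-end option -p, whereas the labels say single-end, and this conflict was not resolved. No header option sets strand, shared exons or multiple alignments, so overlapping genes and near-identical copies are uncertain. Exon lengths are those deposited with the counts. A reference derived from C57BL/6J can lose DBA/2J reads.

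Counts were tested over all genes with edgeR 4.0.16 (R 4.3.3; quasi-likelihood, legacy=FALSE, TMM, strain as sole term), after filterByExpr with a minimum count of 10, and adjusted by Benjamini-Hochberg over 15647 genes. The fit was tested on simulated data. Alternatives were RLE or no scaling, DESeq2 1.42.0, the older edgeR form, no filter, a replicate term, and each library left out. The 39 genes, their roles and the lists were chosen with earlier results of these data known. All 39 are named, and from each list up to 3 called genes per direction with the lowest adjusted p, plus all genes of counts of 5 or fewer; uncalled genes and further values named from the lists were chosen after their values were seen. The listed hepatocyte marker symbol Tf was not matched. Some genes counted in the lists are not reported here by name.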

Additional observations from a re-analysis of the deposited data

How the results depend on the processing

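The 7 calls among the 39 genes and their directions held with RLE scaling, DESeq2, the older edgeR form and without either C57BL/6J library. Scaling by library totals alone gave 8 higher genes, adding Lipa, Lamp1 and Scarb2, and a median log2 of 0.19, while the median of all tested genes became 0.09. With no filter on low counts, which tests more genes, 1516 genes in all, 2 higher and 1 lower of the 39, and 9 higher and 6 lower of the related lists were called, and Ctsc, Naglu, Neu1 and Ppt1 lost their calls (edgeR adjusted p up to 0.101). With each library left out, calls ranged from 292 to 4905 for all genes, from 0 to 7 higher and 0 to 4 lower among the 39, and from 3 to 31 higher and 0 to 23 lower in the related lists. The median log2 then ranged from 0.071 to 0.13, and the share of counts from 0.581% to 0.582% in DBA/2J and 0.507% to 0.514% in C57BL/6J. Over TMM-scaled library sizes that share was 0.565% in DBA/2J and 0.525% in C57BL/6J. The cause of these changes was not tested. With the replicate number as a block, 2395 genes were called, with 5 higher and 2 lower of the 39, and 15 and 10 in the related lists; same-numbered libraries did not deviate together (r = 0.02 across 15647 genes), so the numbers were not taken as pairs. The genes with the fewest counts, such as Sgsh with 217 to 540 per library, carry the most counting error.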

Other observations

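Read by substrate rather than by role, a grouping chosen after the values were seen and so given with no test, the enzymes of heparan sulfate breakdown named here had log2 values above 0 in DBA/2J. Sgsh stood at 0.68, Ids at 0.60, Naglu at 0.42, Gusb at 0.33, and Hgsnat and Idua at 0.10 each. Of these 6 genes, Ids and Naglu were called. Among genes acting on keratan sulfate and gangliosides, Galns was higher at 1.10 and Neu1 at 0.41, whereas Glb1 was lower at -0.83. Hexa stood at 0.13 and was not called.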
